A study of Mus musculus with 6 samples.

Results

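The plasminogen activator system was followed through 6 genes in mouse tumours with and without Kindlin-1: the activators Plau and Plat, the urokinase receptor Plaur, and the serpins Serpine2, Serpinb2 and Serpinf1. They were taken by name, 6 of the 37991 genes listed in the count files, and all 6 were matched by Ensembl identifier. The tumours came from cutaneous squamous cell carcinoma (cSCC), a cancer of skin keratinocytes. The genotype label Kindlin-1 WT (wild type) covered 3 libraries and Kindlin-1 Null, a knockout, the other 3, and the labels name no treatment or time point for either. Total RNA came from the tumours, and cSCC is also entered as the cell line, while the sources used here do not give the strain, age, sex or host, or how many clones stand behind each genotype. Kindlin-1, the product of Fermt1, is an adaptor that binds the tails of beta integrins. The comparison asked how expression differed between tumours with and without it.

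Plasminogen is a circulating zymogen made mainly by the liver, and its active form plasmin dissolves fibrin and degrades matrix proteins. Urokinase (Plau) and tissue-type plasminogen activator (Plat) make the activating cut, and the urokinase receptor (Plaur) holds urokinase at the cell surface. Serpins are protease inhibitors that offer a bait loop to the protease and trap it once the loop is cut. In skin the urokinase system is known from wound edges and from the invasive margins of carcinomas.

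Values given for single libraries follow the order 1 to 3 within each group. Libraries differed widely in depth, from 161711 to 15529242 reads in genes for WT and from 1138318 to 31487255 for null, so single low counts in the shallow libraries carry wide counting error. Fermt1 had 16, 2 and 1040 reads in the WT libraries against 0, 2 and 2 in the null libraries, in the direction of the labels (log2 fold change -8.18, edgeR adjusted p = 0.000297). The titles give mouse number 238 to WT libraries 1 and 2 and number 242 to null libraries 2 and 3, although the deposited table of null library 3 is named with another number. Nothing says whether a shared number is a shared animal, so p-values measure the spread between these libraries, which may be partly technical. Of 8 tested keratinocyte markers 1 fell, 0 rose and 7 did not pass, with 4 log2 fold changes above 0 and 4 below. Krt14, the one that fell, stood at 26.3 to 45.3 CPM (read counts scaled to library size with edgeR's TMM factors) in WT and at 5.12 to 10.6 CPM in null tumours. Itga6, an integrin subunit of basal keratinocytes, was at 56.6 to 89.8 CPM in WT and at 99.1 to 121 CPM in null tumours. Its log2 fold change was 0.59 (edgeR adjusted p = 0.176). Krt18 lay the other way, also without overlap, at 14.1 to 36.9 CPM in WT and 6.97 to 9.44 CPM in null tumours. Its log2 fold change was -1.01 (edgeR adjusted p = 0.145). Trp63, a transcription factor of basal cells, had overlapping values (0.53, edgeR adjusted p = 0.461). Krt5 reached at most 3.9 CPM in any library and Krt1 had 0 reads in all 6. Skeletal muscle markers summed to 522 to 1459 CPM in WT and 46.8 to 126 CPM in null tumours, and none of the 15 was at 0 in either group as a whole. WT library 3 had the lowest CPM of the 6 for Plau, Plat, Serpinf1 and S100a10, and WT library 2 held the highest level of liver genes. In these bulk samples fewer cells of a type and less RNA per cell cannot be told apart.

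Of the 5 genes that could be tested, Serpine2 was the one that changed: it was 4.12-fold lower in null tumours. Of the 6 genes, 5 passed the expression filter and were tested, 1 of these 5 was called lower and 0 were called higher. Plau, Plaur and Plat had higher means in null tumours and Serpinf1 a lower one, and none of these differences passed the test. Over all 11887 tested genes 5.79% were called in edgeR's quasi-likelihood test at an adjusted p under 0.05, 3.52% lower and 2.26% higher. At an unadjusted p under 0.05, 3 of the 5 genes passed (Plaur, Serpine2 and Serpinf1), against 25% of all tested genes. The 3 null values lay wholly above or wholly below the 3 WT values for 3 of the 5 (Plau, Plaur and Serpine2), against 30.5% of all tested genes. These genes and the lists below were chosen with earlier results of these data known, so shares among them are a description only. DESeq2 also called Serpine2 and none of the others. The median log2 fold change of the 5 was 0.43, beside 0.01 over all tested genes.

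**Figure D1:**
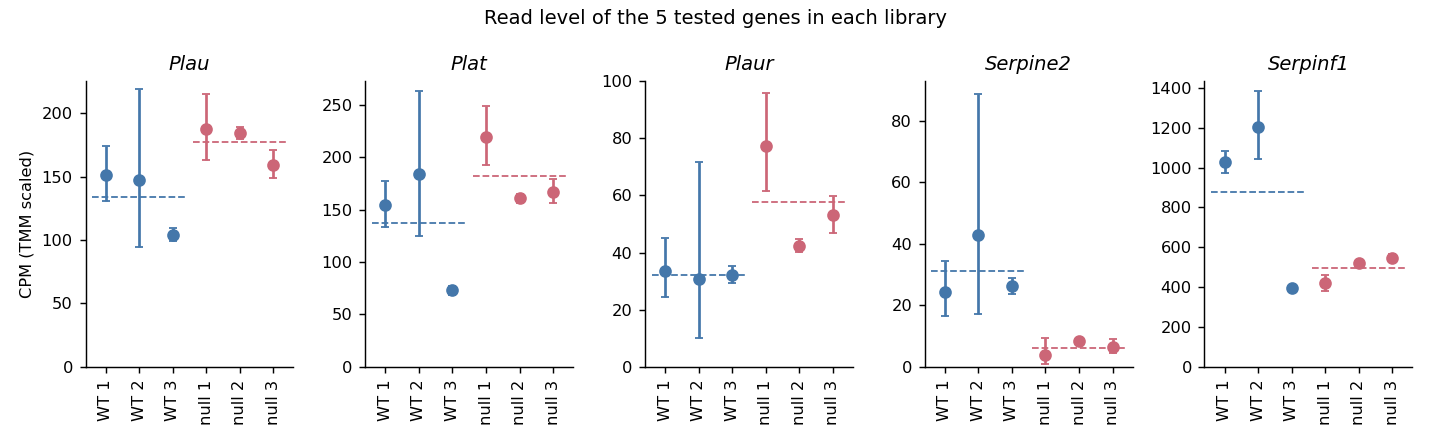
CPM (TMM scaled, linear axis from 0) of the 5 tested genes in each of the 3 WT (blue) and 3 null (red) libraries. Bars are 95% exact Poisson intervals of the read count, covering counting error only, and dashed lines are group means. The 3 null values of Serpine2 lie between 3.68 and 8.24 CPM, all below the WT values of 24.2 to 43 CPM.

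Per kilobase of transcript, Serpinf1 was the most abundant of the 6 genes in every library. Its level was 216 to 657 CPM per kb in WT and 228 to 298 CPM per kb in null tumours. Plau (44.5 to 64.7 CPM per kb in WT, 68.1 to 80.2 in null) and Plat (28.9 to 73 and 63.7 to 86.8) came next. Their ranges overlapped in both groups, so the order of these neighbours is not resolved. Plaur followed at 20.4 to 22.3 CPM per kb in WT and 28.2 to 51.4 in null tumours. Serpine2 stood at 11 to 19.5 CPM per kb in WT, just under Plaur, and at 1.67 to 3.73 in null tumours, well under it. In percentiles of the level per kilobase over 11720 tested genes with a length, Serpine2 went from 56 in WT to 15.1 in null tumours, while Plau stood at 88.8 and 90.8.

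Plau encodes urokinase, the activator tied to cell surfaces and migration. Its read counts were 194, 24 and 1669 in the WT libraries and 204, 5827 and 811 in the null libraries, which is 151, 147 and 104 CPM against 188, 185 and 160 CPM. The lowest null value lay just above the highest WT value, and WT library 3 was the lowest of all. Group means were 134 ± 26.2 CPM (WT) and 177 ± 15.5 CPM (null) (SD, n = 3). The log2 fold change, null minus WT, was 0.43 (SE 0.25, 95% interval -0.11 to 0.97, edgeR adjusted p = 0.302). It was 0.22 without WT library 3. The interval spans a small decrease and a rise of 1.96-fold.

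Plat encodes tissue-type plasminogen activator, the activator of fibrin clots that endothelial cells are known to secrete. Its level was 155, 184 and 73 CPM in the WT libraries and 219, 161 and 167 CPM in the null libraries. WT library 3 stood below the other 5 libraries, and WT library 2 lay among the null values, so the groups overlapped. The means were 137 ± 57.6 and 182 ± 32.1 CPM (SD, n = 3), with a log2 fold change of 0.5 (SE 0.33, 95% interval -0.21 to 1.21, edgeR adjusted p = 0.355). Leaving out WT library 3 brought the log2 fold change to 0.11, the lowest of 14 alternative fits. None of 8 endothelial markers passed by edgeR, where 0 also had an unadjusted p under 0.05, or by DESeq2. None was at 0 reads in either group, and they summed to 191 to 269 CPM in WT and 251 to 328 CPM in null tumours. Log2 fold changes were above 0 for 7 and below 0 for 1, Vwf, named after its values were seen (-0.71, edgeR adjusted p = 0.262). The part of these markers in the Plat values was not tested.

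Plaur encodes the lipid-anchored surface receptor that binds urokinase. Its WT values were nearly the same in the 3 libraries, at 33.6, 30.7 and 32.2 CPM, of which the value of library 2 rests on 5 reads. The null values were 77.4, 42.4 and 53.1 CPM, all above WT and spread more widely among themselves. The mean went from 32.2 ± 1.43 to 57.6 ± 17.9 CPM (SD, n = 3), 1.72-fold higher in the fit. This difference did not pass the test over all genes (log2 fold change 0.79, SE 0.29, 95% interval 0.16 to 1.41, edgeR unadjusted p = 0.0173, adjusted p = 0.116). Adjusted p stayed above the threshold in all 14 alternative fits, from 0.107 to 0.31. Among the tested genes 11.2% had a larger log2 fold change. Of 10 macrophage markers, cells in which this receptor is known to be expressed, none passed (edgeR; 1 at an unadjusted p under 0.05, and 0 by DESeq2) and none was at 0 reads in either group. These markers summed to 3639 to 6684 CPM in WT and 6120 to 7610 CPM in null tumours. Of their log2 fold changes 6 were above 0 and 4 below, with a median of 0.11. The marker at an unadjusted p under 0.05 was Lyz2, named after its values were seen. It averaged 1451 CPM in WT and 3227 CPM in null tumours (log2 fold change 1.17, edgeR adjusted p = 0.137). The part of these markers in the Plaur values was not tested.

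Serpine2 encodes protease nexin-1, a secreted serpin that inhibits thrombin, urokinase and plasmin. It had 31, 7 and 420 reads in the WT libraries and 4, 260 and 32 reads in the null libraries. Scaled to depth this was 24.2, 43 and 26.2 CPM against 3.68, 8.24 and 6.3 CPM. Every null library lay below every WT library, and the gap was wide: the lowest WT value was 24.2 CPM and the highest null value 8.24 CPM. The mean fell from 31.1 ± 10.3 (SD, n = 3) to 6.07 ± 2.29 CPM, a difference larger than the spread in either group (log2 fold change -2.04, SE 0.37, 95% interval -2.84 to -1.25, edgeR adjusted p = 0.00802). Among the tested genes 1.39% had a lower log2 fold change.

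The fall of Serpine2 held its call in each of the 14 alternative fits. The log2 fold change ranged from -2.38 without null library 2 to -1.71 with a random effect for mouse number, and adjusted p ranged from 0.00173 to 0.0351. When libraries sharing a mouse number were added together it was -1.98 (edgeR adjusted p = 0.0121). Counting error was wide in the shallow libraries: the 4 reads of null library 1 allow 1 to 9.43 CPM and the 7 reads of WT library 2 allow 17.3 to 88.6 CPM (95% exact Poisson intervals). These do not overlap. Markers of several cell types moved in the same libraries. Of 14 tested skeletal muscle markers 13 fell. Of 6 tested pericyte and smooth muscle markers 2 fell, namely Cspg4 and Des, and their sum was 529 to 1068 CPM in WT and 410 to 602 CPM in null tumours. Of 4 tested adipocyte markers 3 fell, with sums of 97.1 to 251 and 43.5 to 94 CPM. Fibroblasts are a known source of protease nexin-1. Of 9 fibroblast markers 3 rose (Lum, Dcn and Postn), 2 fell (Col1a2 and Thy1) and none was at 0. Log2 fold changes were above 0 for 5 of the 9 and below 0 for 4. The sums were 8036 to 14714 CPM in WT and 16481 to 19167 CPM in null tumours. Col3a1, the most abundant of the 9 and named after its values were seen, averaged 5550 and 7756 CPM and did not pass (edgeR adjusted p = 0.415). The part of these cell types in the fall of Serpine2 was not tested.

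The stretches around the start sites are shown for the gene that fell, for the receptor closest to the threshold and for the serpin with almost no reads (the first of its 2 annotated starts). Each is a window of 300 bases, 250 before and 50 after the annotated start, from RefSeq on GRCm38.p6, a later build than the mm9 of the submitters' processing notes. Capitals mark matches, on either strand, to 3 motifs: the AP-1 motif TGANTCA, the GC box GGGCGG and the TATA motif TATAAA. Matches of 1 motif can share or adjoin bases, so a run of capitals may hold more than 1.
Serpine2, chr1:79858616-79858915, minus strand: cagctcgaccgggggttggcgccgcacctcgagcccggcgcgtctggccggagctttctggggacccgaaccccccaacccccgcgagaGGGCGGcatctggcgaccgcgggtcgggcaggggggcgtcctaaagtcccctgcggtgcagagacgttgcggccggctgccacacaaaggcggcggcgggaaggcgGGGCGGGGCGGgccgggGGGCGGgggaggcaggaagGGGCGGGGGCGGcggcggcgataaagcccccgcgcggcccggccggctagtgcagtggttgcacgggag
Plaur, chr7:24462233-24462532, plus strand: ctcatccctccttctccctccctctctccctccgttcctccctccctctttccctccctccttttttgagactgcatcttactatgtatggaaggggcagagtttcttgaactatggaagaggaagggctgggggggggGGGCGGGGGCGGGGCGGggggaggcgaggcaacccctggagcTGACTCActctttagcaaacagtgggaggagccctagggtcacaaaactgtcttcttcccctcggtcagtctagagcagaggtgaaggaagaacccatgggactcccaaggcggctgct
Serpinb2, chr1:107511173-107511472, plus strand: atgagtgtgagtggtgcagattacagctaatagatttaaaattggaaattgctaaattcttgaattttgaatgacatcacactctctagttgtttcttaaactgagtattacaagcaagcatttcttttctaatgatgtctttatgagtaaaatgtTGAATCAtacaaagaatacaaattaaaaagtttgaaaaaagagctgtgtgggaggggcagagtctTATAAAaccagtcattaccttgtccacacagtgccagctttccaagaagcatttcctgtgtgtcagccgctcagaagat

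The Serpine2 window held 6 GC boxes and was 77.7% G and C, against a median of 52.7% over 32851 windows. It held no match to AP-1 or TATA. The Plaur window held 3 GC boxes and 1 AP-1 match beginning 69 bases before the start. The Serpinb2 window held 1 AP-1 match, beginning 94 bases before the start, and 1 TATA match, and no GC box. Serpinf1, the other gene of the 6 with a window, had no match to any of the 3. Over all windows AP-1 was found in 7.8%, the GC box in 35.7% and TATA in 13.6%. The cyclic AMP element TGACGTCA, was searched for in the same way, was found in 1.8% of all windows and in none of these. Such matches are descriptions of the letters and not evidence of binding.

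Serpinb2 encodes plasminogen activator inhibitor 2, an inhibitor of urokinase that is largely kept inside cells and is known from differentiating keratinocytes and stimulated macrophages. It was almost undetected: 0 reads in all 3 WT libraries, and 2, 1 and 0 reads in the null libraries. Pooled over the group, the null level was 0.0793 CPM (unscaled, 95% exact Poisson interval 0.0163 to 0.232). The WT total of 16974519 reads with a count of 0 allows up to 0.217 CPM by the same kind of interval. A floor of 3 counts stands at 0.177 CPM there. The groups cannot be told apart at this depth, and the gene did not pass the expression filter. In the annotation it overlaps Serpinb10 on the same strand, so ambiguous reads may have been dropped.

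Serpinf1 encodes pigment epithelium-derived factor, a secreted protein with the serpin fold that does not inhibit proteases and is known to restrain vessel growth. It had 1317, 196 and 6347 reads in the WT libraries and 454, 16449 and 2774 reads in the null libraries. The levels were 1028, 1204 and 396 CPM against 418, 521 and 546 CPM. WT libraries 1 and 2, which share a mouse number, stood at about the same high level, and WT library 3 lay below all 3 null libraries. The means were 876 ± 425 and 495 ± 67.7 CPM (SD, n = 3). The log2 fold change was -0.8 (SE 0.37, 95% interval -1.6 to -0.01, edgeR unadjusted p = 0.0485, adjusted p = 0.196). Without WT library 3 it was -1.19 and passed (adjusted p = 0.00747). When libraries sharing a mouse number were added together it was -0.61 (adjusted p = 0.545). The spread among the WT libraries was larger than the difference between the group means.

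**Figure D2:**
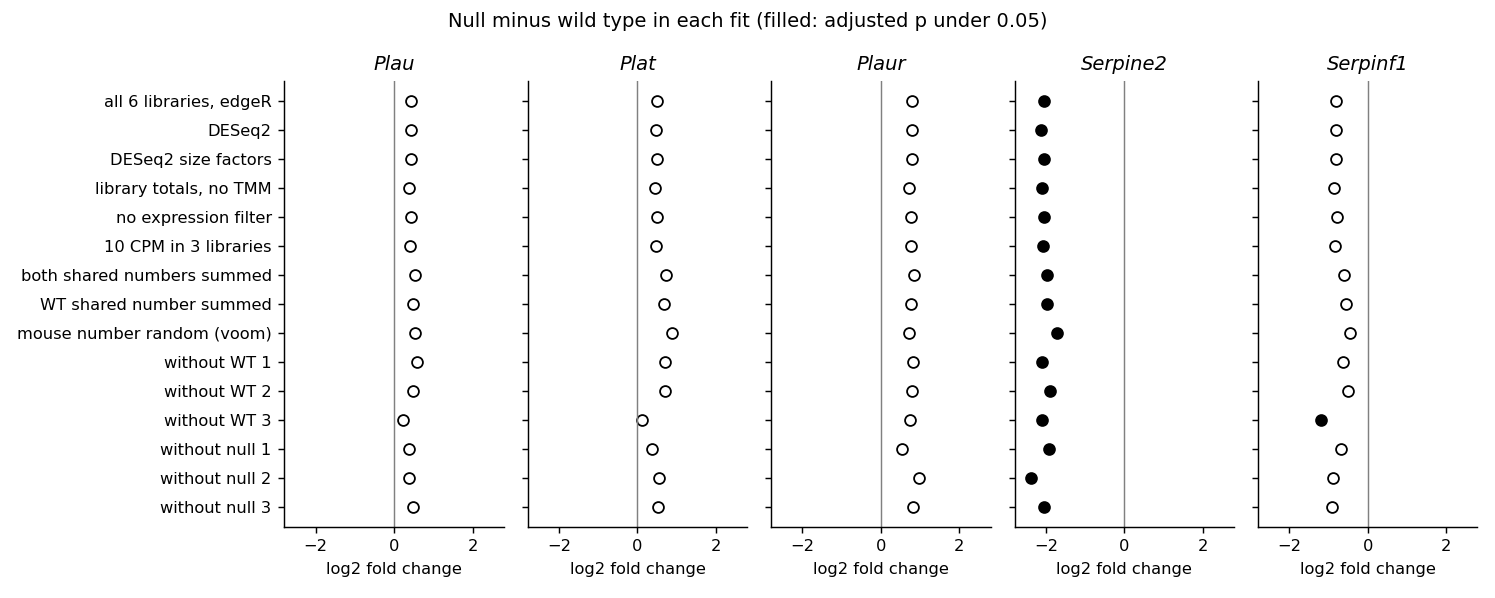
Log2 fold change (null minus WT, x axis) of the 5 tested genes in the fit to all 6 libraries and in 14 alternative fits (y axis); filled points have an adjusted p under 0.05. Serpine2 stays between -2.38 and -1.71 and is filled in every fit, whereas Serpinf1 is filled only without WT library 3.

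Read ratios within a library do not depend on scaling between libraries, and they separated the groups where Serpine2 was the denominator. There were 6.26, 3.43 and 3.97 Plau reads for each Serpine2 read in the WT libraries and 51, 22.4 and 25.3 in the null libraries. For Plat the ratios were 6.39, 4.29 and 2.79 against 59.5, 19.5 and 26.6. All null ratios lay above all WT ratios for both activators. The lowest null interval began at 17.2 for Plat and 17.8 for Plau, above the upper ends of the WT intervals, which reached 11.6 and 9.46 (95% exact binomial intervals, counting error only). Serpinf1, whose own mean was lower in null tumours, also gave null ratios to Serpine2 above all WT ratios. These were 42.5, 28 and 15.1 in the WT libraries and 113.5, 63.3 and 86.7 in the null libraries. Their intervals overlapped, reaching 70.6 in WT and beginning at 44 in null libraries. The ratio of Plau to its receptor Plaur overlapped between the groups, at 4.51, 4.8 and 3.23 in WT and 2.43, 4.35 and 3 in null tumours. These ratios restate the reads of the genes described above and were not tested separately.

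**Figure D3:**
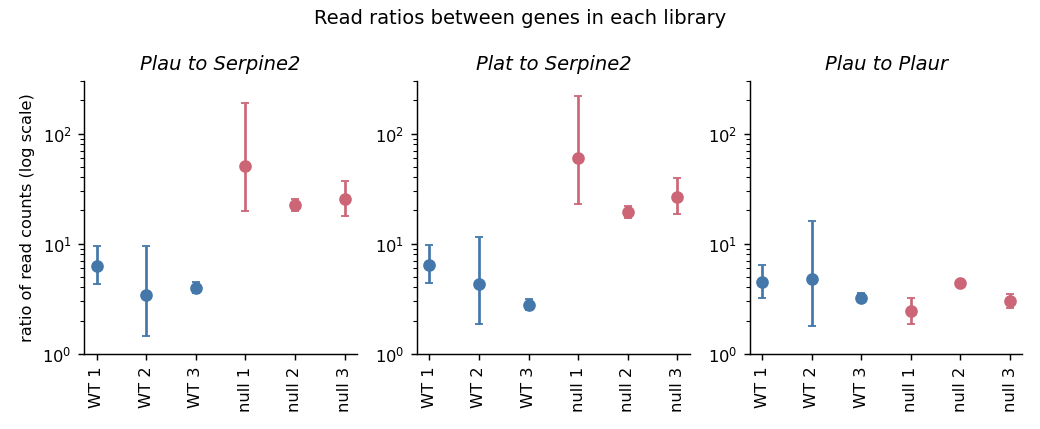
Ratio of read counts between gene pairs in each library (log axis), with 95% exact binomial intervals; WT libraries are blue and null libraries red. Ratios of Plau and Plat to Serpine2 are 2.79 to 6.39 in WT and 19.5 to 59.5 in null libraries, while Plau to Plaur overlaps.

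The rest of the plasminogen system showed 1 called gene. A list of 19 further genes held inhibitors, clearance receptors, plasminogen-binding proteins and plasminogen itself, of which 18 were matched and 8 were tested. Of these 8, 1 fell, 0 rose and 7 did not pass by edgeR, with a median log2 fold change of 0.03. Over all tested genes 3.52% were called lower and 2.26% higher. At an unadjusted p under 0.05 in edgeR 3 of the 8 passed, against 25% of all tested genes. DESeq2 called 2 lower among the 13 of the list to which it gave an adjusted p. The gene called by edgeR was Mrc2, an endocytic collagen receptor that binds the urokinase receptor complex. Its level was 43.7, 86 and 51 CPM in the WT libraries and 15.7, 21.6 and 9.44 CPM in the null libraries, with no overlap. It fell 3.38-fold (log2 fold change -1.76, SE 0.36, edgeR adjusted p = 0.0159). The call was lost without null library 1 (0.0776), without null library 3 (0.0566) and with a random effect for mouse number (limma-voom, 0.0983).

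Among the inhibitors of that list, Serping1 is described although it was chosen after its values were seen. Serping1 encodes the C1 inhibitor, which also acts on plasma proteases of the contact system. Its level was 67.9 and 86 CPM in WT libraries 1 and 2 but 10.5 CPM in library 3, against 11.1, 10.4 and 3.74 CPM in the null libraries. The log2 fold change of -2.44 (SE 0.7) missed the threshold (edgeR adjusted p = 0.0603). It passed in 4 of the 14 alternative fits, among them DESeq2 (adjusted p = 0.00173). The size depended on single libraries: the log2 fold change was -3.18 without WT library 3 (edgeR adjusted p = 0.00195) and -1.54 without WT library 1 (0.243). It was -1.9 (0.252) when libraries sharing a mouse number were added together and -0.59 (limma-voom, 0.69) with a random effect for mouse number.

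The 3 most abundant genes of the list take part in binding and clearance. Lrp1, the endocytic receptor that clears activator and inhibitor complexes, averaged 1610 ± 294 CPM in WT and 1453 ± 176 CPM in null tumours (SD, n = 3). Its log2 fold change was -0.14 (95% interval -0.76 to 0.47, edgeR adjusted p = 0.783). Anxa2, a membrane-binding protein that with S100a10 forms a surface docking site for plasminogen, averaged 1439 ± 137 and 1473 ± 128 CPM. Its log2 fold change was 0.04 (95% interval -0.55 to 0.62, edgeR adjusted p = 0.949), with a sign that turned under library totals without TMM (-0.02). S100a10 was 1060, 1069 and 450 CPM in the WT libraries and 2105, 1081 and 1497 CPM in the null libraries. The highest WT value lay just under the lowest null value, and the difference did not pass (log2 fold change 0.87, SE 0.38, edgeR adjusted p = 0.171). Plasminogen itself was close to undetected, with 0, 5 and 4 reads of Plg in the WT libraries and 0 in all 3 null libraries.

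**Figure D4:**
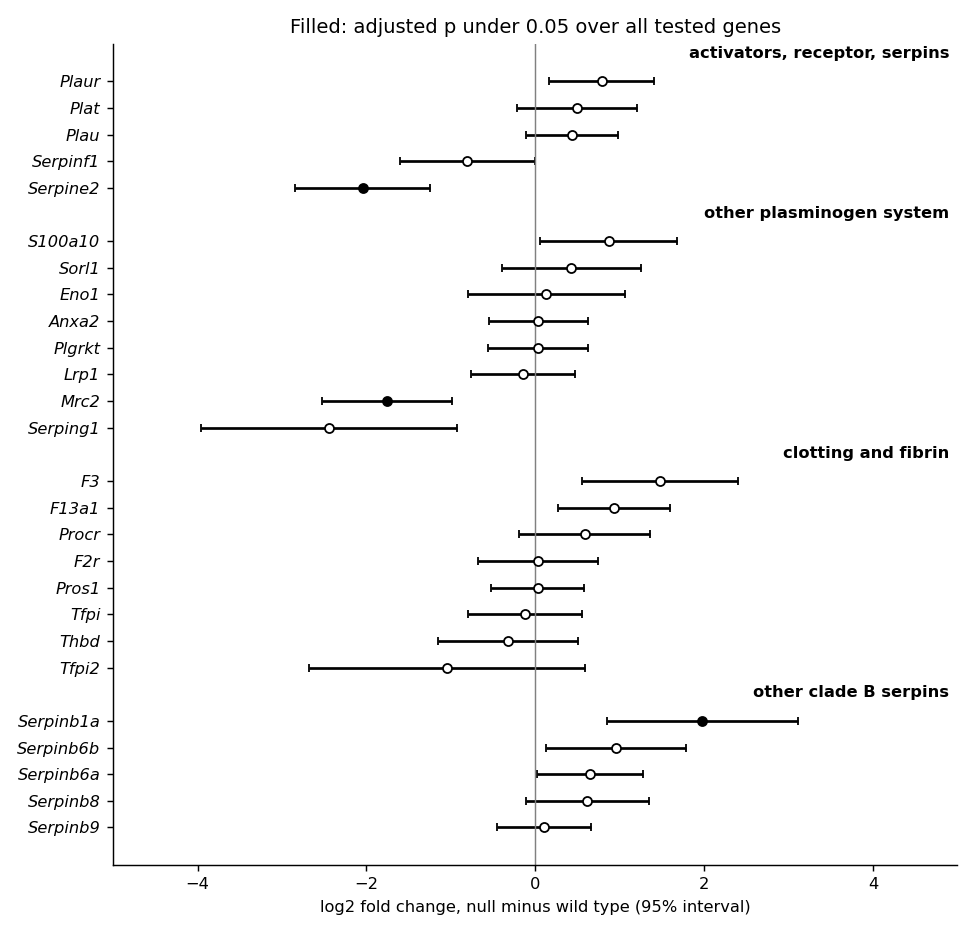
Log2 fold change, null minus WT, with its 95% interval for every tested gene of the set, of the other plasminogen system genes, of clotting and fibrin genes and of the other clade B serpins. Filled points (Serpine2, Mrc2 and Serpinb1a) have an edgeR adjusted p under 0.05 over 11887 genes.

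Thrombin and fibrin genes, the other side of the balance on which Serpine2 acts, held no gene called by edgeR over all 6 libraries. Of 16 listed, 8 were tested by edgeR and 0 passed, against 5.79% of all tested genes, with a median log2 fold change of 0.03. At an unadjusted p under 0.05 in edgeR 2 of the 8 passed, both higher, against 25% of all tested genes. DESeq2 called 1 higher among the 14 of the list to which it gave an adjusted p. The pair with an unadjusted p under 0.05 was named after the values were seen. F3, tissue factor, which starts clotting, had 7.03, 0 and 4.56 CPM in the WT libraries against 13.8, 14.3 and 13.8 CPM in the null libraries (log2 fold change 1.48, SE 0.43, edgeR adjusted p = 0.0594). F13a1, the subunit that crosslinks fibrin, averaged 245 ± 68 CPM in WT and 453 ± 135 CPM in null tumours (SD, n = 3; log2 fold change 0.93, SE 0.31, edgeR adjusted p = 0.0865). DESeq2 called F13a1 (adjusted p = 0.038) and not F3 (0.203). With a random effect for mouse number both passed (limma-voom, adjusted p = 0.0329 for F3 and 0.026 for F13a1), and when libraries sharing a mouse number were added together neither did (edgeR, 0.154 and 0.146). F3 also passed without WT library 1 (edgeR, 0.0459).

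The other intracellular serpins of clade B, the family of Serpinb2, had few reads for the most part. Of 20 listed, 7 had no read in any library and 5 were tested, of which 1 rose and 0 fell by edgeR. At an unadjusted p under 0.05 in edgeR 3 of the 5 passed, all higher, against 25% of all tested genes. All 5 log2 fold changes were above 0, with a median of 0.65. DESeq2 called 1 gene higher and 1 lower among the 7 of the list to which it gave an adjusted p. The gene DESeq2 called lower was Serpinb5, also known as maspin, named after its values were seen, with 2, 3 and 17 reads in WT and 0 in all 3 null libraries. It did not pass edgeR's expression filter. Serpinb1a, an inhibitor of neutrophil serine proteases, rose 3.94-fold, from 55.4, 24.6 and 14.4 CPM in the WT libraries to 127, 59.4 and 178 CPM in the null libraries (log2 fold change 1.98, SE 0.52, edgeR adjusted p = 0.0445). The groups came close, at 55.4 and 59.4 CPM. The call was lost in 9 of the 14 alternative fits, among them those without WT library 2 (0.0866), WT library 3 (0.196), null library 1 (0.142) or null library 3 (0.128), and the log2 fold change was 2.97 without WT library 1 and 1.3 without WT library 3. Clade B genes are close paralogs, so reads could be split or lost between copies.

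By the pattern over the 6 libraries on the log2 CPM scale, the genes most like Serpine2 were Numbl, Unc5b and Actn1, among 4815 genes with a mean of at least 50 CPM. Their Pearson correlations with Serpine2 were 0.9995, 0.996 and 0.994 over n = 6 libraries. Numbl, an adaptor of Notch signalling, and Unc5b, a netrin receptor, were also called lower, with log2 fold changes of -1.12 (edgeR adjusted p = 0.0253) and -1.4 (0.0152). Actn1, which encodes alpha-actinin of focal adhesions, lay just outside the threshold at -0.93 (0.0508). The nearest to Plau was Ankrd46, to Plat Tm4sf1, to Plaur Gtf2a2 and to Serpinf1 Ecm1, each with a correlation of 0.992 to 0.997. The 6 points share library, depth and genotype, and the correlations are given as a description. Genes chosen for likeness to Serpine2 share its direction by that choice, so their calls are not independent results.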

How the data were processed

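RNA was sequenced from 6 tumour libraries, 3 Kindlin-1 WT and 3 Kindlin-1 Null, grouped by the genotype label; replicate numbers follow the order of deposition. The authors deposited 1 table of raw read counts per library, by Ensembl gene and not normalized. TopHat2, Cuffdiff, DESeq2 and build mm9 are named in the submitters' processing notes; the sources used here do not give the counting program, its strand setting or its annotation. The 5 closing lines for unassigned reads stayed out of library sizes (ambiguous reads 1.72% to 2.11%, reads in no gene 4.63% to 12%, reads with several alignments 32.9% to 40%). Symbols came from GENCODE M21 by identifier (86.6% of 37991 matched; 1 listed gene, Klkb1, had none), and levels per kilobase used its longest protein-coding transcript.

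Null and WT were compared with edgeR 4.0.16 (R 4.3.3; default expression filter, TMM, robust quasi-likelihood fit, Benjamini-Hochberg adjustment at 0.05 over all tested genes), and the code was tested on simulated data. CPM are TMM scaled, and each SE is the log2 fold change over the root of its F statistic. A count of 3 was the floor for genes with no reads; floors and Poisson or binomial intervals (95%) cover counting error only, since reads carry no molecular identifiers. Alternatives were DESeq2 1.42.0, other scalings and filters, summed or random mouse numbers (limma 3.58.1), and each library left out. The members, lists and tests were chosen with earlier results of these data known. Named genes were the 6 members, every called gene of the plasminogen, clotting and clade B lists, the 3 most abundant of the plasminogen list, and the 3 genes most correlated with each tested member (log2 CPM, prior count 3, mean of at least 50 CPM). Genes named after their values were seen are marked. The other lists were cell type markers: keratinocyte, fibroblast, endothelial, pericyte and smooth muscle, macrophage, neutrophil, mast cell, skeletal muscle and adipocyte. 1 plasminogen system gene is not reported here and stayed out of its list.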

Additional observations from a re-analysis of the deposited data

How the results depend on the processing

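The count of called genes was 688 over all libraries and 484 when libraries sharing a mouse number were added together. It was 1156 with a random effect for mouse number in limma-voom (consensus correlation 0.597 within a number). With 1 library left out it was 179 to 855, the lowest without null library 1. It was 281 without WT library 3 and 225 when null library 3 was omitted. Of the 6 genes, 1 was called over all libraries and 1 to 2 with 1 library left out (2 without WT library 3, Serpinf1 being added). Plau, Plaur, Plat and Serpine2 kept their direction and their side of the threshold in all 14 alternatives. The log2 fold change of Serpinf1 ranged from -1.19, without WT library 3, to -0.51 with 1 library left out. Among the other plasminogen system genes the count went from 1 to 2 with DESeq2 or library totals without TMM, to 0 with a random effect for mouse number in limma-voom, and from 0 to 2 with 1 library left out. Anxa2 changed sign under library totals without TMM (-0.019), without WT library 3 (-0.067) and without null library 1 (-0.037), and ranged up to 0.101 with 1 library left out. The cause of these changes was not tested. No paired analysis was possible because the labels give the groups no shared replicate numbers. Depth limits Serpinb2, Plg and the values of WT library 2, where a floor of 3 counts stands at 18.6 CPM.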

Other observations

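Reads of liver genes were found in all 6 libraries and stood highest in WT library 2. A list of 23 genes typical of hepatocytes was drawn up after reads of Plg and the fibrinogen genes had been seen there, and it holds those genes, so it is a description only. Without Plg, Fga, Fgb and Fgg, the other 19 genes had 305 reads in WT library 2 (1886 CPM, unscaled) and 7.08 to 65.4 CPM in the other 5 libraries. Hp, encoding haptoglobin, made up 79 of the 84 reads in WT library 1, 142 of 178 in WT library 3 and 190 of 223 in null library 2. Without Hp as well, the level was 1830 CPM in WT library 2 and 1.05 to 5.55 CPM in the others. Alb, encoding serum albumin, had 184 reads in WT library 2, 3 in WT library 3, 3 in null library 3 and 0 in the rest. The fibrinogen genes Fga, Fgb and Fgg had 5, 5 and 6 reads in WT library 2, and 1 read in all the other libraries together. Without WT library 2 the log2 fold change of Serpine2 was -1.9 (edgeR adjusted p = 0.0189).

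Other marker lists outside the account above also held called genes. Of 7 mast cell markers 5 rose and 0 fell (edgeR; DESeq2 called 3 higher), with sums of 376 to 1051 CPM in WT and 1415 to 4720 CPM in null tumours. Of 4 tested neutrophil markers 1 rose, namely S100a9, 0 fell and 3 did not pass. Among the 4 log2 fold changes 3 were above 0 and 1 was below, that of Csf3r (-0.43, edgeR adjusted p = 0.291). The neutrophil sums overlapped, at 62.9 to 92.2 CPM in WT and 82.2 to 104 CPM in null tumours.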
